A study of Rattus norvegicus with 30 samples.

Results

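Autophagy and lysosome genes were read in rat hepatocytes given a PPARα agonist. The set holds 38 genes named by function, from the kinases that start an autophagosome to the enzymes and membrane proteins of the lysosome. A member was read by a probe set that carries its symbol and no other. Of the 38 genes, 35 had such a probe set, and Map1lc3b, Gabarapl2 and Nbr1 appeared only on probe sets of several symbols and were not read. All 35 passed the signal filter, with 55 of their 57 probe sets, among 11545 genes tested in all. The rule for membership uses names and no measured value.

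WY-14643 (pirinixic acid) is a synthetic agonist of PPARα, a nuclear receptor that switches on fatty acid oxidation genes in rodent liver. The cells were purchased frozen male hepatocytes (Sprague Dawley rat), plated on collagen-coated wells with Matrigel. From day 3 the wells held vehicle (1% DMSO), 8 µM WY-14643 or 200 µM WY-14643, and total RNA was taken after 24 h or 48 h. Each of these 6 groups had 5 wells, each an independent culture on its own Affymetrix rat array, and the compound is 1 of 10 that were studied separately. Whether the treated medium had the same DMSO content as the vehicle is not certain from the labels. The labels do not say that the wells came from different animals, so a p-value here measures the spread between wells. In whole-well RNA, fewer cells of a type and less RNA per cell cannot be told apart.

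Autophagy encloses cytoplasm in a double membrane and delivers it to the lysosome for digestion. The ULK kinase complex and the class III PI3-kinase complex start the membrane, the WIPI proteins bind the lipid that the latter makes, and conjugation enzymes attach proteins of the LC3 and GABARAP family to it. Receptors tether cargo to that coat, Rab7 and the HOPS tethering complex bring the vesicle to the lysosome, and hydrolases then break the contents down. In liver the pathway supplies amino acids and fatty acids in fasting and also digests lipid droplets, and the transcription factor TFEB drives many of its genes through a short E-box. PPARα is known to drive autophagy genes in fasted liver, and the comparisons ask how their transcripts differ when cultured hepatocytes receive its agonist.

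The stretches before the start sites of 5 members are shown, chosen with their values known. Lipa, Rab7a and Wipi1 differed most from vehicle, and Ctsd was the member whose response differed between times at the deposited scaling. Lamp1 holds 5 of the E-boxes that TFEB binds and did not pass the test at the deposited scaling. Whether these stretches bear on the values was not tested. Each is 250 bases, 5′ to 3′, ending at the base before the gene's start, from RefSeq on build GRCr8, and all lie on the minus strand. Capitals mark the E-box CACGTG, which reads the same on both strands. The positions are chr1:241470741-241470990 for Lipa, chr4:122064186-122064435 for Rab7a, chr10:95079294-95079543 for Wipi1, chr1:206968822-206969071 for Ctsd and chr16:83075064-83075313 for Lamp1.
Lipa: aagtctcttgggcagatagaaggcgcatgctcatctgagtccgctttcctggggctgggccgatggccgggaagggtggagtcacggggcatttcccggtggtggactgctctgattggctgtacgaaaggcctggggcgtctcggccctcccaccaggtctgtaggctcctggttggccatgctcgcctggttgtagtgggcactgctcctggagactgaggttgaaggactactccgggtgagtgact
Rab7a: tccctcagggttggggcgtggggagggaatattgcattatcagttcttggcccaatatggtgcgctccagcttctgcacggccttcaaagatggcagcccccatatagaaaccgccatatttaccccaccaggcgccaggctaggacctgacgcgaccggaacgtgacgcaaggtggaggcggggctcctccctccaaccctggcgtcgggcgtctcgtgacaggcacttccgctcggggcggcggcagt
Wipi1: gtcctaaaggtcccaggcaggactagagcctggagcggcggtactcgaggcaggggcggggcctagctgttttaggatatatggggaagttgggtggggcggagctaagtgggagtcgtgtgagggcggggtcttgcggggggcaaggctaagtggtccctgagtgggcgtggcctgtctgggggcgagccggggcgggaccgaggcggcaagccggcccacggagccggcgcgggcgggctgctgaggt
Ctsd: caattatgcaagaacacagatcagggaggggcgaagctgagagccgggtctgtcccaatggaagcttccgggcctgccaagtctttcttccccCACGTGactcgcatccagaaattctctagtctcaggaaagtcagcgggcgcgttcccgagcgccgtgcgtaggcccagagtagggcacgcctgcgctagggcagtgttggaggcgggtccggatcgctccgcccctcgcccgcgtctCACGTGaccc
Lamp1: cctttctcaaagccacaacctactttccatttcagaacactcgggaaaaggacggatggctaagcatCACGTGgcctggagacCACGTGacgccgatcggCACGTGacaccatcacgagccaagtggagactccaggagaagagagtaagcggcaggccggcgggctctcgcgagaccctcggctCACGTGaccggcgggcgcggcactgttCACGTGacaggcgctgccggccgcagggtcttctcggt
The Lipa, Rab7a and Wipi1 stretches hold no E-box, the Ctsd stretch holds 2 and the Lamp1 stretch 5.

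Over 250 bases before to 50 bases after the start, RefSeq promoters were at hand for 33 of the 38 genes. The E-box CACGTG stood in 8 of the 33 (24.2%): Bnip3, Ctsd, Vps11, Atg3, Mcoln1, Atg14, Lamp1 and Atg5. It stood in 6.42% of all 33469 promoters and in 8.91% of the 11734 promoters of genes on the array. The longer form TCACGTGA, which contains the E-box and was searched on both strands, stood in 5 of the 33 (15.2%), against 0.777% of all promoters and 1.46% of those of genes on the array. The shorter ACGTG, the core of the hypoxia response element, overlaps the E-box and stood in 14 of the 33 (42.4%), against 19.3% of all and 24% of those of genes on the array. An ideal direct repeat of the nuclear receptor core with 1 base between the copies, the kind of element PPARα binds, was in none of the 33 member windows and in 0.0538% of all promoters. These matches are letters in a window and not measured binding.

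Before the members are compared, the culture and the arrays need a short account. All 9 hepatocyte markers with a probe set were above the filter, with a median signal of 70820 for Alb. Of the 9, 3 fell at 8 µM and 2 at 200 µM at 24 h and 4 at each dose at 48 h, where 1 rose at 8 µM. Among all genes 13.8% and 13.1% fell at 24 h (8 µM, then 200 µM) and 18.9% and 17.1% at 48 h. Tat, a liver amino acid enzyme under glucocorticoid control, fell by -1.54 ± 0.11 at 8 µM and 24 h. The summed signal of the 9 markers had medians of 524380 with vehicle, 455750 with 8 µM and 479682 with 200 µM at 24 h, and of 466667, 400363 and 400788 at 48 h. The part of this in the members' values was not tested. In the same wells all 10 measured PPARα target genes rose at both doses and times, Cyp4a1 by 3.82 ± 0.09 on the log2 scale (SE) at 8 µM and 24 h. The 29 other arrays had median signals of 383 to 439, but the array of 48 h vehicle replicate 4 had 764, and its median correlation with its group was 0.896 against 0.973 to 0.980. For the members it gave the lowest signal of its group in 25 of 35 and the highest in 5, so results that rest on it are given with and without it. The 3′ to 5′ signal ratio of the actin control, a measure of RNA length, averaged 2.86 ± 0.278 (SD, n = 5) with vehicle at 24 h, 3.10 ± 0.214 with 8 µM and 3.31 ± 0.169 with 200 µM. The 48 h averages were 2.61 ± 0.313, 3.26 ± 0.417 and 3.10 ± 0.201, so the treated wells had the higher ratios. The part of this ratio in the members' values was not tested.

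Signals below are MAS5 signals, a probe set's brightness on a linear scale that the authors had set to a common level on every array. Differences are log2 fold changes of signal + 16 with their standard error. A gene is said to have risen or fallen where limma's two-sided adjusted p was under 0.05 over all 11545 genes. Both doses of a time were set against the same 5 vehicle wells, so their values stand side by side and are not independent of each other.

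At 24 h and 8 µM, 4 members rose and 6 fell, 10 of 35 (28.6%), while 24.9% of all genes changed (11.1% higher, 13.8% lower). At 24 h and 200 µM, 4 rose and 4 fell, 8 of 35 (22.9%), against 24.7% of all genes (11.6% higher, 13.1% lower). Both shares are near those of all genes. The members that rose were the same at both doses: Wipi2, Atg5, Atg12 and Lipa. Uvrag, Wipi1 and Rab7a fell at both doses, joined by Gabarapl1, Sqstm1 and Mcoln1 at 8 µM and by Tfeb at 200 µM.

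At 48 h and 8 µM, 9 members rose and 7 fell, 16 of 35 (45.7%), against 35.6% of all genes (16.7% higher, 18.9% lower). At 48 h and 200 µM, 8 rose and 8 fell, also 45.7%, against 33.8% of all genes (16.8% higher, 17.1% lower). Wipi2, Atg5, Atg12, Lipa, Bnip3 and Ctsd rose at both doses, and Uvrag, Wipi1, Gabarapl1, Sqstm1 and Rab7a fell at both. When each array was centred on its own median, which lowers the bright array of 48 h vehicle replicate 4 against the rest, 8 rose and 1 fell at 8 µM and 7 rose and 1 fell at 200 µM. In that setting 18% of all genes rose and 6.63% fell at 8 µM, and 16.8% and 6.02% at 200 µM. It moved the median of all genes at 48 h to 0.129 and 0.118, from -0.063 and -0.049. Rab7a was the member that fell in it at both doses, and Wipi2, Atg5, Atg12, Atg14, Ctsd and Lipa rose at both, with Atg10 and Lamp2 at 8 µM and Ulk1 at 200 µM. At 24 h the same centring left 5 members at 8 µM and 4 at 200 µM, where it called 12.7% and 11.7% of all genes. These members were Wipi2, Lipa, Uvrag and Rab7a at both, and Wipi1 at 8 µM. The 24 h medians of all genes moved little, to 0.004 and -0.001 from -0.029 and -0.017. Standard errors grew: the further probe sets of Lamp2 and Rab7a had 0.159 and 0.192, against 0.085 and 0.098 at the deposited scaling. The fit's error is shared by the arrays of both times, so 48 h vehicle replicate 4 enters it at 24 h too. A call lost at 24 h under centring therefore does not by itself show a smaller change. Without 48 h vehicle replicate 4, 9 rose and 7 fell at 8 µM and 7 rose and 11 fell at 200 µM, against 37% and 36% of all genes. Without 48 h vehicle replicate 3, 12 members changed at 8 µM (8 rose, 4 fell) and 10 at 200 µM (7 rose, 3 fell), against 34.1% and 32.7% of all genes. The calls lost there were those of Atg101, Atg5, Atg7 and Sqstm1 at 8 µM and of Ulk1, Atg13, Atg9a, Gabarapl1, Sqstm1 and Tfeb at 200 µM.

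The members did not move as a block. Their median log2 fold change was -0.06 at 8 µM and -0.04 at 200 µM at 24 h, and 0.02 and -0.002 at 48 h, where all genes had medians of -0.03, -0.02, -0.06 and -0.05. In all, 22 members changed in at least 1 of the 4 comparisons with vehicle, and 7 changed in all 4. These are 62.9% and 20% of the 35, against 48.9% and 14.8% of all genes. Of the 7, Wipi2, Atg5, Atg12 and Lipa were higher and Uvrag, Wipi1 and Rab7a lower. No member rose in one comparison and fell in another. Members that changed with no overlap between the 5 treated and the 5 vehicle wells numbered 9 and 6 at 24 h (8 µM, then 200 µM) and 8 and 9 at 48 h, against 19.5%, 18.9%, 20.8% and 20.4% of all genes. A change of more than 1.5-fold was reached by 2 members in each 24 h comparison and 3 in each 48 h comparison, 5.71% and 8.57% of the 35. Among all genes 8.93% and 7.93% passed that size at 24 h (8 µM, then 200 µM) and 14.2% and 12.1% at 48 h. Of the 50 calls against vehicle, 34 were kept in every fit that left out 1 of the 30 arrays, and 16 were lost in at least 1 of them. Lipa, Rab7a, Wipi1, Wipi2, Uvrag and Atg12 kept all 4 of their calls.

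**Figure D1:**
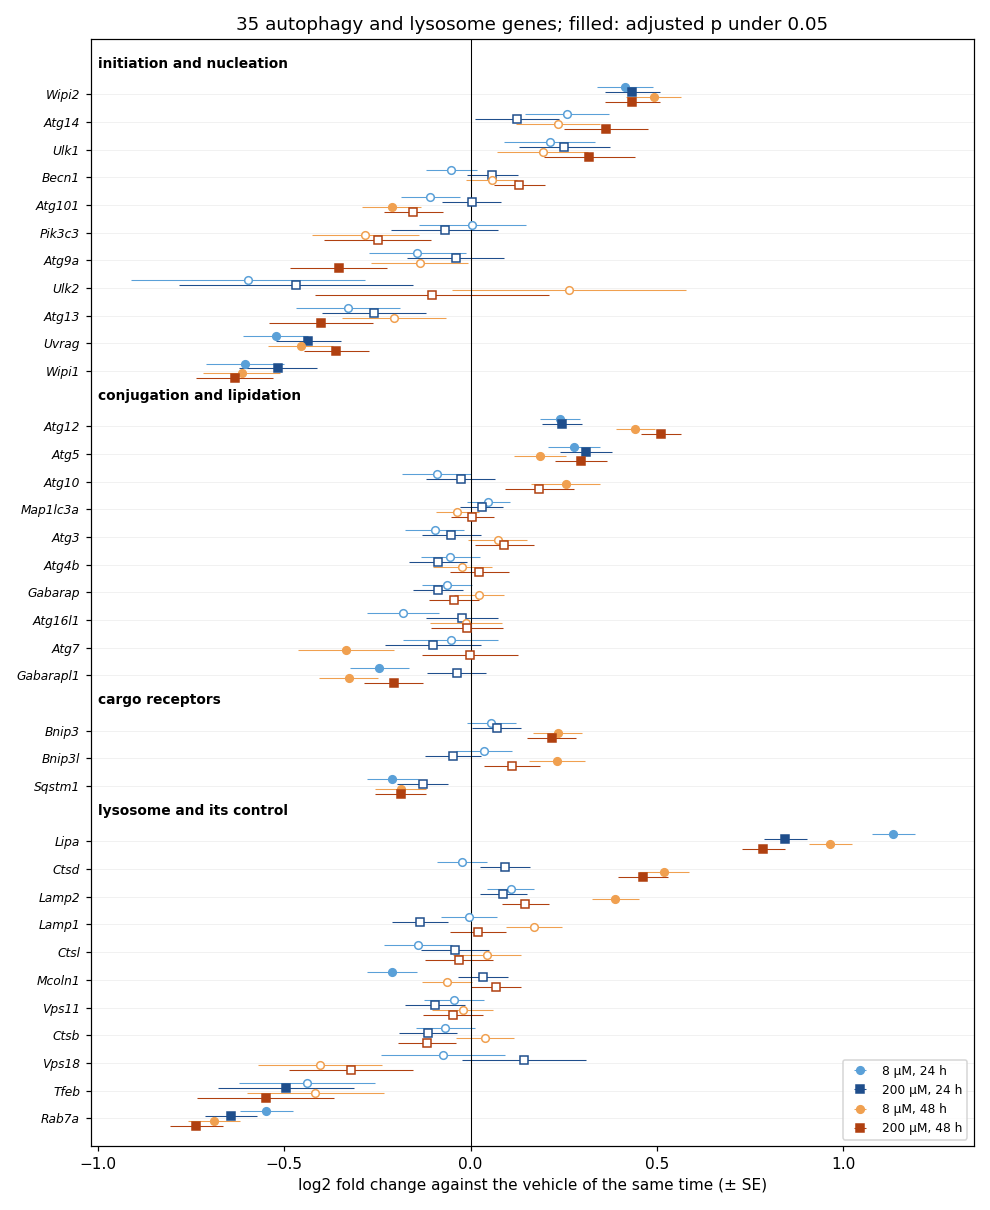
Log2 fold change against the vehicle of the same time (± SE, horizontal axis) for the 35 members read, grouped by role, with 8 µM as circles, 200 µM as squares, 24 h in blue and 48 h in orange and red; filled symbols have an adjusted p under 0.05. Lipa stands farthest to the right at 0.79 to 1.14, Rab7a and Wipi1 lie at or below -0.52 in all 4 comparisons, and most other members lie within 0.5 of zero.

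Lipa, the acid lipase that splits cholesteryl esters and triglycerides inside the lysosome, was the member with the largest change. Its signals in 24 h vehicle wells were 7133, 6068, 6856, 6941 and 6423. At 8 µM they were 14987, 13333, 15175, 14800 and 15172, and at 200 µM 11813, 12317, 11513, 12259 and 12113. Every treated well lay above every vehicle well, and every 8 µM well above every 200 µM well. In 48 h vehicle wells Lipa read 6663, 5835, 6700, 5409 and 5889. At 8 µM it read 11305, 12067, 12096, 11278 and 12720, and at 200 µM 10180, 10296, 10118, 10961 and 10913. The treated wells again lay above all vehicle wells, and the lowest 8 µM well above the highest 200 µM well. The rise was 2.2-fold at 8 µM and 24 h (log2 1.14 ± 0.06, adjusted p = 3.7e-17) and 1.8-fold at 200 µM (0.85 ± 0.06, adjusted p = 1.1e-13). At 48 h it was 1.95-fold at 8 µM (0.97 ± 0.06, adjusted p = 1.9e-15) and 1.72-fold at 200 µM (0.79 ± 0.06, adjusted p = 4.8e-13). The higher dose gave the smaller rise at 24 h, by -0.29 ± 0.06 (adjusted p = 0.002), in a comparison that called 3.02% of all genes (1.39% higher and 1.63% lower at 200 µM). At 48 h the difference was -0.18 ± 0.06 and missed the threshold (adjusted p = 0.069), but passed without 48 h vehicle replicate 4 (adjusted p = 0.019).

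Rab7a, the small GTPase that late endosomes and autophagosomes need to fuse with lysosomes, fell in all 4 comparisons with vehicle. Its fall was the largest among members at 200 µM and 24 h and at both doses at 48 h. It read 19462, 19683, 20062, 19411 and 21912 in 24 h vehicle wells. At 8 µM the wells read 14282, 13203, 13393, 13376 and 14429, and at 200 µM 13246, 12073, 13209, 13332 and 12442. No treated well reached the lowest vehicle well. At 48 h the vehicle wells read 25859, 25616, 23519, 17796 and 25337, the fourth being the array that stands apart. The 8 µM wells read 13141, 14824, 14908, 14480 and 15294, and the 200 µM wells 14381, 13044, 14098, 14642 and 14111. All treated wells lay below even that low vehicle well. The fall was -0.55 ± 0.07 at 8 µM and -0.64 ± 0.07 at 200 µM at 24 h (adjusted p = 1.6e-07 and 7.2e-09). At 48 h it was -0.69 ± 0.07 and -0.74 ± 0.07 (adjusted p = 9.9e-10 and 2.6e-10). A second probe set of Rab7a fell too, by -0.62 ± 0.10, -0.47 ± 0.10, -0.76 ± 0.10 and -0.66 ± 0.10 in the same order. Under centring on the array medians it fell at 8 µM, by -0.59 ± 0.19 and -0.57 ± 0.19, and did not pass at 200 µM (-0.46 ± 0.19 and -0.49 ± 0.19). With all arrays at the deposited scaling Rab7a was also the 1 member that differed between the vehicle groups. It was higher at 48 h by 0.22 ± 0.07 (adjusted p = 0.042), in a comparison that called 9.87% of all genes (4.46% higher, 5.4% lower). This rise was lost, with adjusted p of 0.067 to 0.11, without any 1 of vehicle replicates 1 to 4 at 24 h or 1, 2, 3 and 5 at 48 h, and was larger, at 0.32 ± 0.05 (adjusted p = 1.7e-05), without 48 h vehicle replicate 4. Without that array Gabarapl1 (0.26 ± 0.05, adjusted p = 0.00081) and Mcoln1 (0.23 ± 0.06, adjusted p = 0.012) were higher at 48 h too. The Rab7a value under centring on the array medians was 0.08 (adjusted p = 0.83).

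Wipi1 and Wipi2 bind the same lipid on the forming membrane, and they moved in opposite directions. Wipi1 read 3561, 3777, 3412, 3204 and 3016 in 24 h vehicle wells. At 8 µM it read 2413, 2358, 2004, 2425 and 1942, and at 200 µM 2316, 2547, 2186, 2250.3 and 2522, all below the lowest vehicle well. At 48 h the vehicle wells read 3479, 3301, 3782, 2147 and 3457. The 8 µM wells read 2157, 2067, 2215, 1982 and 1928, and the 200 µM wells 1891, 2163, 1839, 2061 and 2280.1. Here the groups overlapped through the array that stands apart, whose signal of 2147 fell among the treated wells, while the other vehicle wells lay above all of them. The fall was -0.61 ± 0.10 and -0.52 ± 0.10 at 24 h (8 µM, then 200 µM) and -0.62 ± 0.10 and -0.63 ± 0.10 at 48 h, with adjusted p from 9.2e-06 to 0.00023. It was larger at 48 h without that array, at -0.76 ± 0.08 and -0.77 ± 0.08. With each array centred on its median, the fall passed the threshold at 8 µM and 24 h and not in the other 3 comparisons. A second, dim probe set of Wipi1 gave -0.34 ± 0.24 to -0.25 ± 0.24 and did not pass.

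Wipi2 read 3687 to 5233 in 24 h vehicle wells, 5911 to 6322 at 8 µM and 5772 to 6465 at 200 µM. At 48 h it read 3530 to 4722 in vehicle wells, 5642 to 6430.3 at 8 µM and 5372 to 6154 at 200 µM. No treated well overlapped a vehicle well at either time. The rise was 0.41 ± 0.07 and 0.43 ± 0.07 at 24 h, and 0.49 ± 0.07 and 0.43 ± 0.07 at 48 h, with adjusted p from 2.3e-06 to 4.5e-05.

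**Figure D2:**
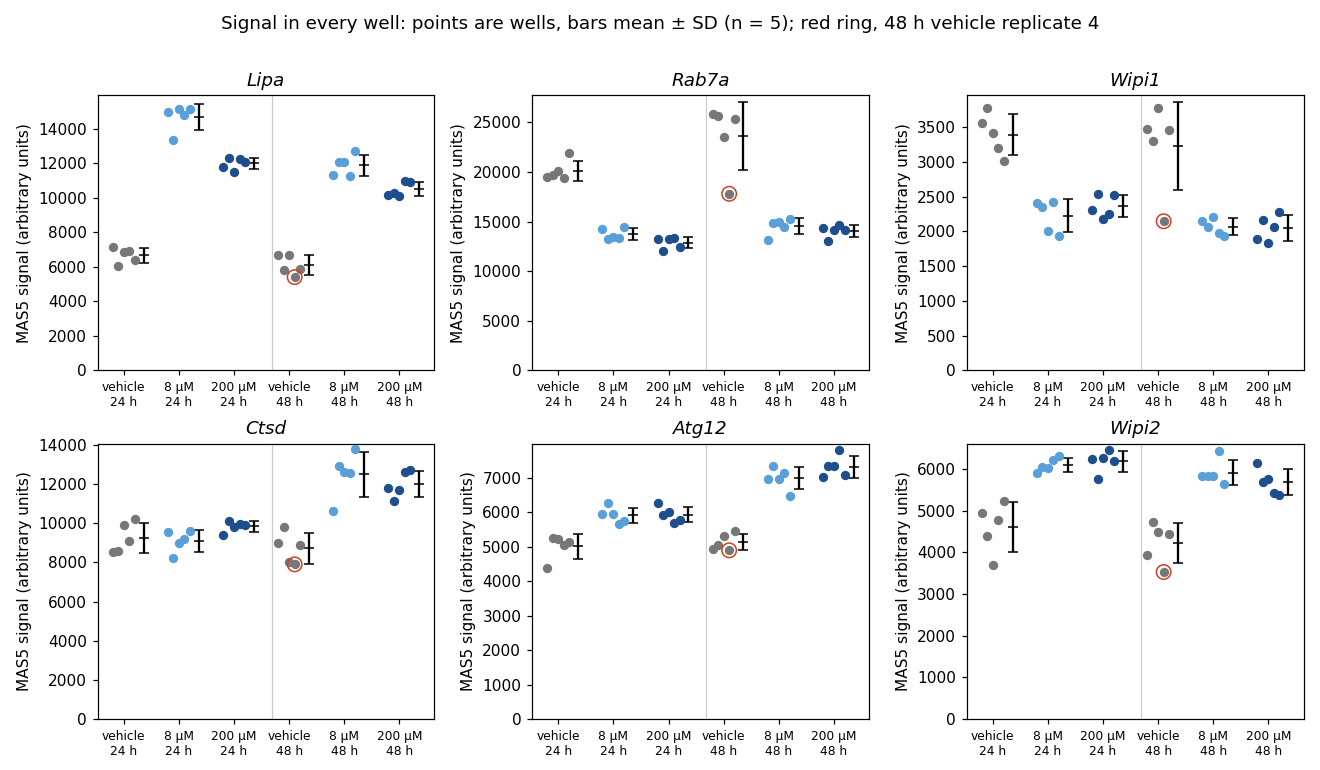
MAS5 signal (vertical axis, arbitrary units, from 0) of 6 members in every well, with the mean and SD of n = 5 wells beside the points; grey is vehicle, light blue 8 µM and dark blue 200 µM, and a red ring marks 48 h vehicle replicate 4. Lipa, Wipi2 and Atg12 are above vehicle in every treated well, Rab7a is below it, Wipi1 overlaps vehicle only through the ringed well at 48 h, and Ctsd separates from vehicle only at 48 h.

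Among the other genes of initiation and nucleation, Uvrag fell in all 4 comparisons. It encodes a partner of Beclin 1 in the class III PI3-kinase complex that acts in autophagosome maturation and endosome traffic. Its 24 h signals were 1769 to 2105 in vehicle wells, 1227 to 1455 at 8 µM and 1210 to 1687 at 200 µM, and at 48 h 1833 to 2219, 1278 to 1599 and 1406 to 1630.3. The treated and vehicle wells did not overlap in any of these. The fall was -0.52 ± 0.09 and -0.44 ± 0.09 at 24 h and -0.46 ± 0.09 and -0.36 ± 0.09 at 48 h (adjusted p from 1.4e-05 to 0.0013). With each array centred on its median the fall passed at 24 h and not at 48 h. Atg14, the partner of Beclin 1 in the complex that starts the autophagosome, differed by 0.36 ± 0.11 at 200 µM and 48 h (adjusted p = 0.012). The adjusted p was 0.05 without 200 µM replicate 5. At the deposited scaling Atg14 did not pass elsewhere with all arrays. It also rose at 8 µM and 48 h without 48 h vehicle replicate 4 (0.29 ± 0.11, adjusted p = 0.036). With all arrays it rose there when each was centred on its median, and under quantile normalization, which sets all arrays to a common distribution.

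The 4 members of the ULK kinase complex changed in few comparisons. Ulk1, the kinase itself, rose at 200 µM and 48 h by 0.32 ± 0.12 (adjusted p = 0.041) and lost this in 9 of the fits without 1 array (any 48 h well at 200 µM, or vehicle replicate 2, 3, 4 or 5), with values of 0.22 to 0.33. Atg13 and Atg101, its regulatory subunits, fell in 1 comparison each with all arrays. Atg13 fell by -0.40 ± 0.14 at 200 µM and 48 h (adjusted p = 0.025), which was lost without vehicle replicate 1 or 3 or 200 µM replicate 1, 3 or 4 (adjusted p up to 0.09). Atg101 fell by -0.21 ± 0.08 at 8 µM and 48 h (adjusted p = 0.036), which was lost without vehicle replicate 2, 3 or 5 or 8 µM replicate 5 (adjusted p up to 0.15). Atg101 fell at both doses without 48 h vehicle replicate 4, by -0.30 ± 0.07 at 8 µM and -0.24 ± 0.07 at 200 µM (adjusted p = 0.00053 and 0.0046). Atg9a, the transmembrane protein of the vesicles that seed the membrane, fell by -0.35 ± 0.13 at 200 µM and 48 h (adjusted p = 0.033), and its second probe set gave 0.12 ± 0.12. That fall was lost without vehicle replicate 1 or 3 or 200 µM replicate 1, 2, 3 or 4 (adjusted p up to 0.14). Under quantile normalization of all arrays the 48 h falls of Atg13, Atg101 and Atg9a were lost. With each array centred on its median they were lost too. Ulk2 rests on the array that stands apart. Its 48 h vehicle wells read 795, 824, 771, 104 and 713, and its signal there was the one at 104. With that array Ulk2 did not pass in any comparison (-0.60 ± 0.31 at 8 µM and 24 h). Without it Ulk2 fell by -0.60 ± 0.15 and -0.47 ± 0.15 at 24 h and by -0.65 ± 0.16 at 200 µM and 48 h (adjusted p = 0.0022, 0.016 and 0.0016). Becn1 (Beclin 1) and Pik3c3, the catalytic subunit of the PI3-kinase complex, did not pass in any comparison, with values of -0.05 to 0.13 and -0.28 to 0.004.

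In the conjugation machinery, Atg12 and Atg5 rose in all 4 comparisons. Atg12 is a ubiquitin-like protein joined to Atg5, and the pair then directs LC3 to the membrane. Atg12 read 4389 to 5242 in 24 h vehicle wells, 5658 to 6255 at 8 µM and 5682 to 6266 at 200 µM, and at 48 h 4896 to 5452, 6481 to 7349 and 7026 to 7818. The treated wells lay above all vehicle wells at both times. Its rise was 0.24 ± 0.05 at either dose at 24 h (adjusted p = 0.00071 at 8 µM and 0.00058 at 200 µM), and 0.44 ± 0.05 and 0.51 ± 0.05 at 48 h (adjusted p = 2.9e-08 and 1.7e-09). The 48 h rise exceeded the 24 h rise by 0.20 ± 0.08 at 8 µM and 0.27 ± 0.08 at 200 µM, and neither difference passed (adjusted p = 0.16 and 0.052). At 200 µM it passed without 48 h vehicle replicate 4 (0.25 ± 0.07, adjusted p = 0.042). Atg5 rose by 0.28 ± 0.07 and 0.31 ± 0.07 at 24 h and 0.19 ± 0.07 and 0.30 ± 0.07 at 48 h (adjusted p = 0.0027, 0.00092, 0.037 and 0.0011). Its call at 8 µM and 48 h was lost without vehicle replicate 1 or 3 or 8 µM replicate 2 or 5 (adjusted p up to 0.11), and with each array centred on its median its 24 h calls and those of Atg12 were lost. The Atg5 wells overlapped vehicle at 24 h, where a vehicle well read 3157 against 2978 to 3499 in treated wells, and not at 48 h. The 2 further probe sets of Atg5 did not pass in any of the 4 comparisons. Of the 2 further probe sets of Atg12, 1 rose at 48 h by 0.38 ± 0.08 and 0.46 ± 0.08, and the other did not pass.

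The other conjugation enzymes were called in 1 comparison at most with all arrays. Atg7, the E1-like enzyme that activates both Atg12 and the LC3 family, fell at 8 µM and 48 h by -0.34 ± 0.13 (adjusted p = 0.040). This was lost without vehicle replicate 1, 3 or 5 or 8 µM replicate 2, 3 or 5 (adjusted p up to 0.12). It was also lost under quantile normalization of all arrays and with each array centred on its median. Atg10, the E2-like enzyme for Atg12, rose in the same comparison by 0.26 ± 0.09 (adjusted p = 0.030), which was lost without any 1 of 8 µM replicates 1, 3 and 4, and without 48 h vehicle replicate 4 came to 0.18 ± 0.08 (adjusted p = 0.11). Atg3, the E2-like enzyme for LC3, Atg4b, the protease that trims it, and Atg16l1, the scaffold of the Atg12 and Atg5 pair, did not pass in any comparison.

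Of the LC3 and GABARAP family, 3 members were read. Gabarapl1 had 24 h signals of 9263.21 to 10536 in vehicle wells and 7959 to 8420.4 at 8 µM, so that the 8 µM wells stood below vehicle. The 200 µM wells read 9262.93, 9216, 9086, 8990.5 and 10436. Of these only replicate 5 lay among the vehicle wells, and the others lay below the lowest of them. It fell at 8 µM by -0.25 ± 0.08 at 24 h (adjusted p = 0.020) and by -0.33 ± 0.08 at 48 h (adjusted p = 0.0013), and at 200 µM by -0.21 ± 0.08 at 48 h (adjusted p = 0.043). The 24 h call was lost without vehicle replicate 1 (-0.21, adjusted p = 0.066), and the 200 µM call without vehicle replicate 1, 2, 3 or 5 or 200 µM replicate 2, 3 or 5 (-0.20 to -0.16). Without vehicle replicate 4, which was the lowest at 7668, the 200 µM value at 48 h was -0.32 ± 0.05 (adjusted p = 7.7e-06). Its second probe set gave -0.37 ± 0.09 and -0.48 ± 0.09 at 8 µM, and -0.02 ± 0.09 and -0.14 ± 0.09 at 200 µM, where it did not pass. The dose difference at 24 h did not pass with all arrays at the deposited scaling. It passed under quantile normalization of all arrays, and at the deposited scaling without 48 h vehicle replicate 4 (0.21 ± 0.05, adjusted p = 0.0074). Map1lc3a and Gabarap did not pass with all 30 arrays at the deposited scaling. Under quantile normalization of all arrays Gabarap fell in all 4 comparisons with vehicle. Without 48 h vehicle replicate 4, at the deposited scaling, Gabarap fell by -0.13 ± 0.05 at 200 µM and 48 h (adjusted p = 0.031).

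The 3 cargo receptors read did not move together. Sqstm1 (p62) links ubiquitin-tagged cargo to LC3, and it had 24 h signals of 39846 to 47057 in vehicle wells, 35384 to 38337 at 8 µM and 37598 to 40058 at 200 µM. It fell by -0.21 ± 0.07 at 8 µM and 24 h (adjusted p = 0.020) and by -0.19 ± 0.07 at both doses at 48 h (adjusted p = 0.029 and 0.031). The 24 h call was lost without replicate 3 of vehicle or of 8 µM, and the 48 h calls without vehicle replicate 1, 2, 3 or 5, 8 µM replicate 3, 4 or 5, or 200 µM replicate 3 or 5 (adjusted p up to 0.11). It also fell at 200 µM and 24 h without 48 h vehicle replicate 4 (-0.13 ± 0.05, adjusted p = 0.043). A second probe set fell in the same 3 comparisons, by -0.31 ± 0.08, -0.41 ± 0.08 and -0.31 ± 0.08, and the remaining, dim one did not pass. Bnip3 and Bnip3l, receptors of mitophagy that sit on mitochondria and are also known hypoxia targets, were at vehicle level at 24 h within their errors (-0.05 to 0.07). Bnip3 rose at 48 h by 0.23 ± 0.07 at 8 µM and 0.22 ± 0.07 at 200 µM (adjusted p = 0.0052 and 0.0095), and its wells overlapped vehicle. Bnip3l rose at 8 µM and 48 h by 0.23 ± 0.08 (adjusted p = 0.015), and its second probe set by 0.39 ± 0.10. Both rest in part on 48 h vehicle replicate 4, which read 23592 on the brighter set against 33200 to 37130 in the other vehicle wells, and 9261 on the second against 15672 to 16861. Without it the brighter set of Bnip3l rose by 0.12 ± 0.04 (adjusted p = 0.033), and Bnip3 by 0.16 ± 0.05 and 0.15 ± 0.05. No cargo receptor passed in any of the 4 comparisons with each array centred on its median. Of 19 measured hypoxia-responsive genes, 6 rose and 3 fell at 8 µM and 4 and 3 at 200 µM at 24 h, and 8 and 1 and 7 and 3 at 48 h. These are 47.4%, 36.8%, 47.4% and 52.6% of the 19, against 24.9%, 24.7%, 35.6% and 33.8% of all genes. Without 48 h vehicle replicate 4 the 48 h counts were 7 and 3 at 8 µM and 7 and 4 at 200 µM. These are 52.6% and 57.9% of the 19, against 37% and 36% of all genes. Ankrd37, a hypoxia target, rose by 0.94 ± 0.10 and 0.65 ± 0.10 at 24 h and 1.39 ± 0.10 and 1.24 ± 0.10 at 48 h. The part of such a response in the Bnip3 and Bnip3l values was not tested.

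**Figure D3:**
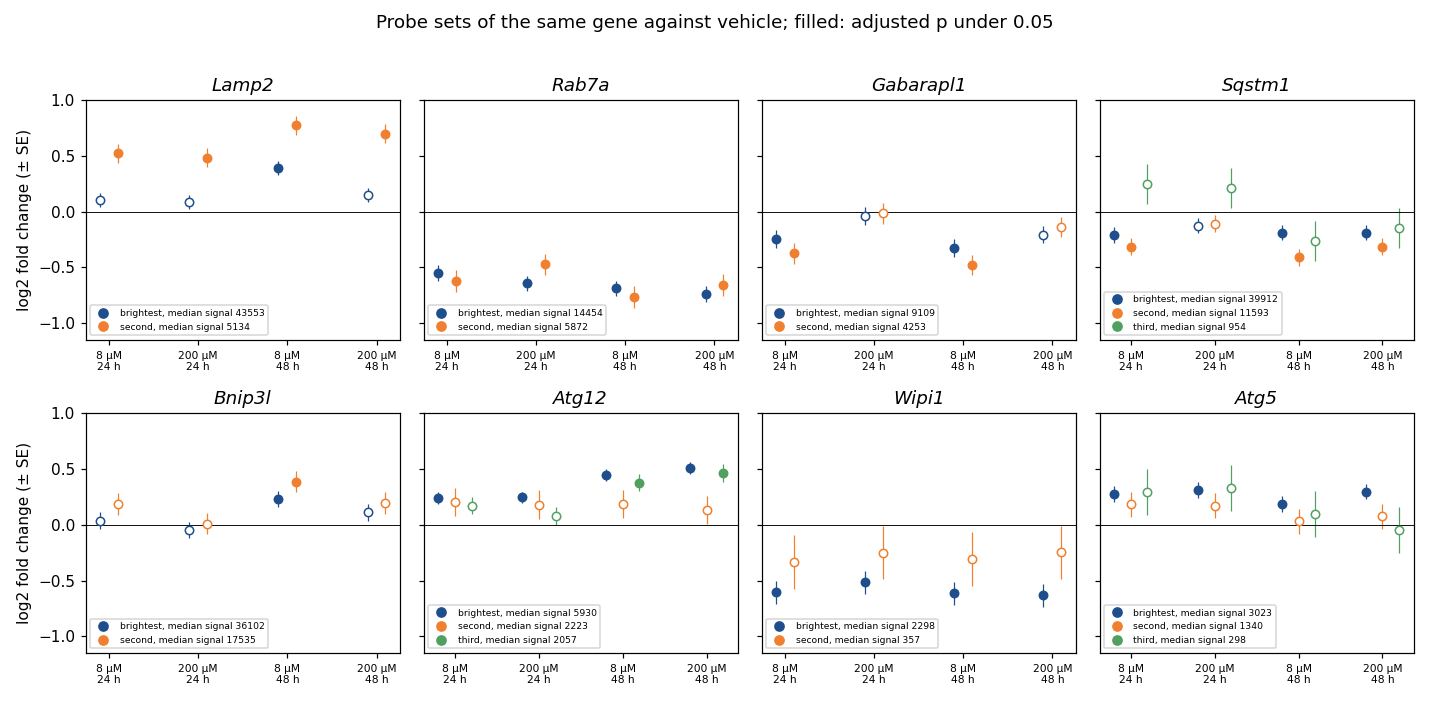
Log2 fold change (± SE, vertical axis) against vehicle for the probe sets of 8 members with more than 1 probe set above the filter, by dose and time, with the median signal of each probe set in the key; filled symbols have an adjusted p under 0.05 when all probe sets are adjusted together. Both probe sets of Rab7a fell in all 4 comparisons, while the dimmer probe set of Lamp2 rose in all 4 and the brighter only at 8 µM and 48 h.

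In the lysosome, Ctsd was the member whose response differed between times at the deposited scaling. It encodes cathepsin D, the main aspartic protease of the lysosome. Its 24 h signals were 8517, 8578, 9896, 9114 and 10197 in vehicle wells, 9539, 8228, 8988, 9205 and 9582 at 8 µM and 9409, 10109, 9804, 9980 and 9935 at 200 µM. These groups overlapped. At 48 h the vehicle wells read 9016, 9822, 8000.3, 7902 and 8902, the 8 µM wells 10653, 12948, 12619, 12572 and 13775, and the 200 µM wells 11817, 11153, 11708, 12628 and 12726. All treated wells then lay above all vehicle wells. The difference from vehicle was -0.02 ± 0.07 and 0.09 ± 0.07 at 24 h, and the rise at 48 h was 0.52 ± 0.07 and 0.46 ± 0.07 (adjusted p = 1.2e-07 and 1.1e-06). The 8 µM effect was larger at 48 h by 0.54 ± 0.09 (adjusted p = 0.00052), where 2.9% of all genes differed (1.67% higher, 1.23% lower), and the 200 µM effect by 0.37 ± 0.09 (adjusted p = 0.027), where 2.41% did (1.3% higher, 1.11% lower). Ctsd was the only member called in either test with all arrays at the deposited scaling. The 200 µM difference was lost, at 0.33 to 0.35, without any 1 of vehicle replicates 3 and 5 at 24 h, vehicle replicate 3 at 48 h, 200 µM replicate 1 at 24 h and 200 µM replicates 4 and 5 at 48 h. With each array centred on its median the differences were larger, at 0.70 and 0.52, and did not pass (adjusted p = 0.18 and 0.5). Without 48 h vehicle replicate 4, Rab7a also passed at 8 µM, by -0.24 ± 0.07, and Atg12 and Gabarapl1 at 200 µM, by 0.25 ± 0.07 and -0.29 ± 0.07. Under quantile normalization of all arrays Bnip3l and Lamp2 (higher) and Rab7a (lower) also passed at 8 µM, and Bnip3l (higher) at 200 µM.

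The cysteine cathepsins Ctsb and Ctsl are the abundant proteases of liver lysosomes, and neither passed with all arrays at the deposited scaling. Under quantile normalization of all arrays Ctsb fell in all 4 comparisons with vehicle, and Ctsl did not pass. Ctsb gave -0.12 to 0.04 and Ctsl -0.14 to 0.04. Ctsb fell by -0.23 ± 0.05 at 200 µM and 48 h without 48 h vehicle replicate 4 (adjusted p = 0.00038), and was then lower at 200 µM than at 8 µM by -0.16 ± 0.05 (adjusted p = 0.033).

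Lamp2, the lysosomal membrane protein that serves chaperone-mediated autophagy and vesicle fusion, gave unlike values on its 2 probe sets. The brighter read 38205 to 45987 in 24 h vehicle wells, 41460 to 46013 at 8 µM and 41484 to 44428 at 200 µM, all overlapping. At 48 h it read 31622 to 41846, 46137 to 51182 and 37587 to 43629, and the 8 µM wells stood above both other groups. It rose at 8 µM and 48 h by 0.39 ± 0.06 (adjusted p = 7.6e-06), and the 200 µM value of 0.15 ± 0.06 passed only under quantile normalization. With all arrays at the deposited scaling it was the 1 member that differed between doses at 48 h. It was lower at 200 µM by -0.24 ± 0.06 (adjusted p = 0.019), where 4.79% of all genes differed (2.26% higher, 2.53% lower). That difference was lost without any 1 of 8 µM replicates 1, 2 and 3 and 200 µM replicates 3 and 5 at 48 h (-0.23 to -0.21, adjusted p up to 0.074). The dimmer probe set read 3261 to 4351 in 24 h vehicle wells, 4885 to 5536 at 8 µM and 4506 to 6032 at 200 µM. Its 48 h signals were 3824 to 5104, 7297 to 9053 and 6460 to 8132, with no overlap at either time. It rose in all 4 comparisons, by 0.52 ± 0.08, 0.48 ± 0.08, 0.77 ± 0.08 and 0.70 ± 0.08 (adjusted p from 6.3e-09 to 4.7e-05), also with each array centred on its median. Lamp1, its abundant relative, did not pass (-0.14 to 0.17), but under quantile normalization it fell at 200 µM and 24 h.

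Mcoln1, the calcium channel of the lysosome membrane that signals to TFEB, separated the doses at 24 h at the deposited scaling. It read 1839 to 2011 at 8 µM, 2163 to 2464 at 200 µM and 2032 to 2407 in vehicle wells, so that the 8 µM wells stood below both. It fell at 8 µM by -0.21 ± 0.07 (adjusted p = 0.017), and 200 µM lay above 8 µM by 0.24 ± 0.07 (adjusted p = 0.035). With Lipa it made up the 2 members that differed between doses at 24 h, and the count of 2 is of 35. The dose difference of Mcoln1 was lost without any 1 of 8 µM replicates 1, 3, 4 and 5 and 200 µM replicates 2, 3 and 4 at 24 h (0.22 to 0.25, adjusted p up to 0.1). Its fall at 8 µM was lost without 8 µM replicate 1 or vehicle replicate 2 (adjusted p up to 0.052). Neither the fall nor the dose difference passed under quantile normalization of all arrays or with each array centred on its median.

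Tfeb, the transcription factor of the set, was dim and scattered, with 579 to 1056 in 24 h vehicle wells and 445 to 734 at 200 µM, and 640 to 1067 against 473 to 619 at 48 h. It fell at 200 µM by -0.50 ± 0.18 at 24 h (adjusted p = 0.045) and -0.55 ± 0.18 at 48 h (adjusted p = 0.019). At 8 µM the values were -0.44 ± 0.18 and -0.42 ± 0.18 and did not pass (adjusted p = 0.081 and 0.076). The 24 h fall at 200 µM was lost in 9 of the fits without 1 array: vehicle replicate 1, 2, 4 or 5, 200 µM replicate 2, 3 or 5, 8 µM replicate 1, or 200 µM replicate 3 at 48 h (-0.53 to -0.40). The 48 h fall was lost without vehicle replicate 3 or 4 or 200 µM replicate 4 (adjusted p up to 0.055). It was also lost under quantile normalization of all arrays and with each array centred on its median (adjusted p up to 0.098). The 24 h fall was lost under that centring and with no signal filter. Vps11 and Vps18, core subunits of the HOPS tethering complex, did not pass, with Vps18 at -0.41 ± 0.17 at 8 µM and 48 h (adjusted p = 0.057). Vps18 read 1836 in 48 h vehicle replicate 4 against 841 to 1007 in the other vehicle wells, and its difference without that array was -0.21 ± 0.14 (adjusted p = 0.26).

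At a 25-fold spacing of concentration, the doses differed by less than 1.5-fold for most members. The 95% interval of the difference between 200 µM and 8 µM lay within 1.5-fold for 34 of 35 members at 24 h (not Ulk2) and 33 at 48 h (not Ulk2 and Atg7). The margin is wide, as 28 members at either dose at 24 h lay within it of vehicle, and 25 and 23 at 48 h (8 µM, then 200 µM). It therefore cannot show that the doses acted alike. In the comparisons with vehicle, 13 members changed in none of the 4 with all arrays: Ulk2, Becn1, Pik3c3, Atg3, Atg4b, Atg16l1, Map1lc3a, Gabarap, Lamp1, Ctsb, Ctsl, Vps11 and Vps18. Their values ran from -0.60 to 0.26 and their lowest adjusted p was 0.057, that of Vps18. For 11 of the 13 the 95% interval lay within 1.5-fold in all 4 comparisons, the exceptions being Ulk2 and Vps18. Of the 13, Ulk2, Gabarap and Ctsb passed in at least 1 comparison without 48 h vehicle replicate 4. Under quantile normalization of all arrays Gabarap and Ctsb fell in all 4, and Lamp1 fell at 200 µM and 24 h.

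The members were also followed by E-box. Of the 8 members with CACGTG in the window, Atg5 rose in all 4 comparisons, Bnip3 and Ctsd rose at 48 h, Atg14 rose at 200 µM and 48 h, Mcoln1 fell at 8 µM and 24 h, and Vps11, Atg3 and Lamp1 did not pass. In at least 1 of the 4 comparisons 62.9% of the 35 members read and 48.9% of all genes changed. At 200 µM and 48 h Lamp1, with 5 copies before its start, gave 0.02 ± 0.08, and Ctsd, with 2, gave 0.46. Lipa, with none in the printed stretch, gave 0.79 ± 0.06 there. A link between the E-box and the size of a change was not tested. Several members had a further probe set above the filter, 16 in all with 20 such probe sets. In the 39 comparisons with vehicle where such a member was called, the further probe set was called the same way in 13, not called in 26 and called the opposite way in 0.

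Of 178 other measured genes of autophagy and the lysosome in 8 lists, 23 rose and 36 fell at 8 µM and 24 h (33.1%), 24 and 29 at 200 µM (29.8%), 46 and 36 at 8 µM and 48 h (46.1%) and 44 and 35 at 200 µM (44.4%). As for the members, both directions were present in each comparison. The shares of all genes were 24.9%, 24.7%, 35.6% and 33.8%. Without 48 h vehicle replicate 4 the 48 h counts were 38 and 46 at 8 µM and 39 and 41 at 200 µM. These are 47.2% and 44.9% of the 178, against 37% and 36% of all genes. With each array centred on its median, 13 rose and 7 fell at 8 µM and 8 rose and 9 fell at 200 µM at 24 h, and 42 and 6 and 38 and 7 at 48 h. The pooled shares in that setting were 11.2%, 9.55%, 27% and 25.3%, against 12.7%, 11.7%, 24.6% and 22.8% of all genes. Wdr45, the WIPI family protein also called WIPI4, rose by 1.16 ± 0.06, 1.02 ± 0.06, 1.36 ± 0.06 and 1.24 ± 0.06 in the order used above. It stands with Wipi2, which rose, while Wipi1 fell. Retreg1 (FAM134B), the receptor for autophagy of the endoplasmic reticulum, fell by -0.82 ± 0.07, -0.57 ± 0.07, -0.91 ± 0.07 and -0.75 ± 0.07. Nr1h4 (FXR), a nuclear receptor known to oppose PPARα at autophagy genes, rose by 1.24 ± 0.08, 0.99 ± 0.08, 1.14 ± 0.08 and 1.14 ± 0.08. Sesn1, an inhibitor of mTORC1 signalling, fell by -1.65 ± 0.09 at 8 µM and 24 h and -1.12 ± 0.09 at 200 µM, while Fnip1, a partner of folliculin in lysosomal signalling, rose by 0.70 ± 0.06 and 0.60 ± 0.06. Scarb2 (LIMP2), a lysosomal membrane protein, rose by 0.71 ± 0.07 to 0.93 ± 0.07. Of 16 v-ATPase genes, the lysosome's proton pump, 7 rose and 2 fell at each dose at 48 h. Of all genes 16.7% rose and 18.9% fell at 8 µM there, and 16.8% and 17.1% at 200 µM. Without 48 h vehicle replicate 4 the v-ATPase counts were 4 and 3 at 8 µM and 5 and 5 at 200 µM. Of all genes 16.8% then rose and 20.2% fell at 8 µM, and 17.2% and 18.8% at 200 µM. With each array centred on its median the v-ATPase counts were 4 and 0 at either dose. In that setting 18% of all genes rose and 6.63% fell at 8 µM, and 16.8% and 6.02% at 200 µM.

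Of 35 measured hydrolases and cofactors other than the members, 3 rose and 7 fell at 8 µM and 24 h, 2 and 10 at 200 µM, 9 and 3 at 8 µM and 48 h, and 7 and 8 at 200 µM. Of all genes, 11.1% rose and 13.8% fell, then 11.6% and 13.1%, 16.7% and 18.9%, and 16.8% and 17.1%, in the same order. Without 48 h vehicle replicate 4 the counts were 4 and 11, 3 and 11, 8 and 5, and 6 and 10. Of all genes 13.7% then rose and 17.1% fell, followed by 14.6% and 16.3%, 16.8% and 20.2%, and 17.2% and 18.8%. With each array centred on its median, most 24 h calls were lost (1 and 1 at 8 µM, 0 and 1 at 200 µM), and the 48 h counts were 9 and 0 at 8 µM and 5 and 1 at 200 µM. In that setting 18% of all genes rose and 6.63% fell at 8 µM and 48 h, and 16.8% and 6.02% at 200 µM. Psap, the precursor of the saposins, rose by 0.82 ± 0.11 at 8 µM and 48 h, and Ctss, a cathepsin of macrophages, fell by -0.77 ± 0.10 at 200 µM and 48 h. Markers of Kupffer cells, the liver's macrophages, were read in the same wells. Of 13 with a probe set 11 were above the filter and Adgre1 and Ptprc were not. Their summed signal was 31901 to 36660.3 in 24 h vehicle wells, 26430 to 29553 at 8 µM and 26220 to 29540 at 200 µM, and at 48 h 26669 to 28885, 18695 to 21700 and 19455 to 21525. Cd14 and Lyz2, with median signals of 13723 and 6391, were the brightest of these markers and led the sum. Among the 11, 2, 3, 2 and 5 fell in the 4 comparisons, against 13.8%, 13.1%, 18.9% and 17.1% of all genes. At 8 µM and 48 h 1 rose, where 16.7% of all genes did. Their part in the values of lysosomal genes was not tested.

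**Figure D4:**
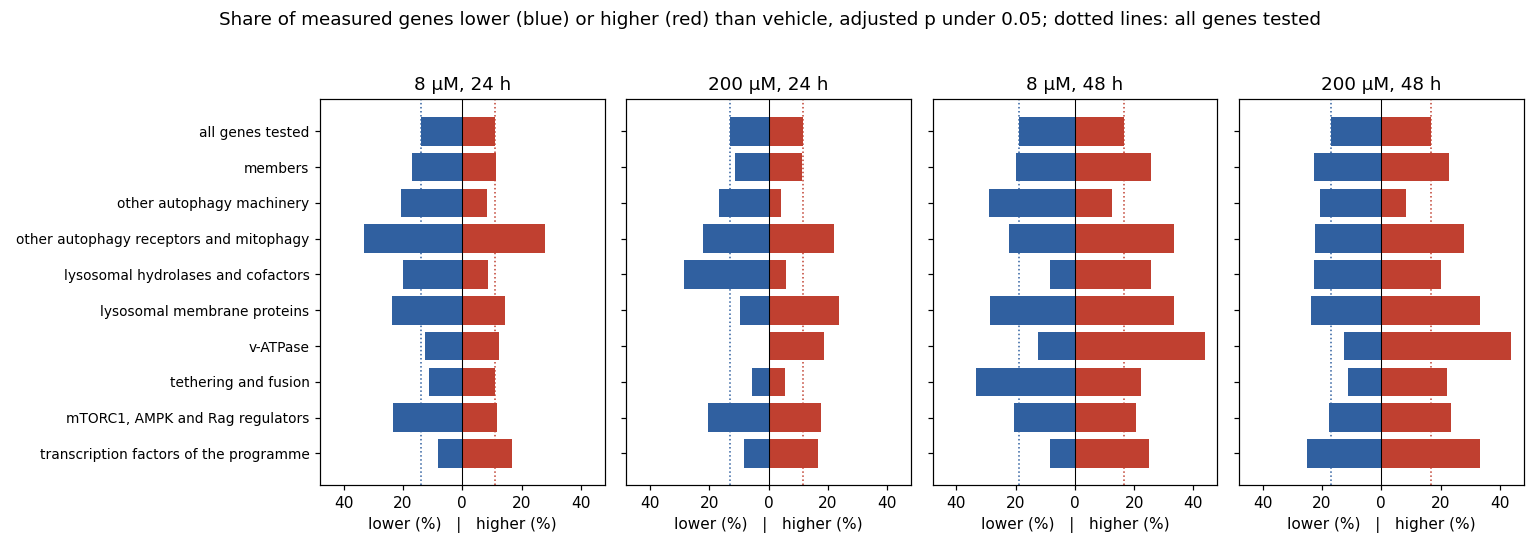
Share of measured genes that fell (blue, to the left) or rose (red, to the right) against vehicle, in percent, for all genes tested, for the 35 members and for the 8 lists of related genes, one panel per dose and time with all 30 arrays; dotted lines repeat the shares of all genes. Members and lists show bars on both sides in every panel except the v-ATPase at 200 µM and 24 h, and 28.6%, 22.9%, 45.7% and 45.7% of the members changed from left to right.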

How the data were processed

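RNA of 30 wells was read on Affymetrix rat arrays. The deposited values are intensity values that the authors made with MAS5, per the submitters' processing notes; version and scaling target are not given in the sources used here. Their 2% trimmed mean was 1500.45 to 1500.7 on all arrays, so no further scaling was applied. The number of arrays limits the precision; no depth applies. Probe sets were named from the platform annotation of 2016. Of 31099 probe sets, 20826 named 1 gene, 436 several and 9780 none. Control probe sets (57) were left out.

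Values entered the fits as log2(signal + 16). Only probe sets were used where 5 or more arrays gave a signal over 281, the 40th percentile across the table, and a gene was read by its brightest kept probe set. All 30 arrays entered 1 limma 3.58.1 fit (R 4.3.3; eBayes with a variance trend), with Benjamini-Hochberg adjustment over 11545 genes in each of 9 contrasts. The script was tested on simulated data. Tables and plots used Python 3.11.15, pandas 2.3.3 and matplotlib 3.10.9.

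The members and lists were chosen with earlier results of these data known. By rule, up to 6 called members with the largest change in each contrast were described, the top 3 of any comparison with vehicle well by well, and up to 3 genes of each other list. All other genes, the every-well values of Ctsd and Ulk2 and the further probe sets were chosen after their values were seen. For lists and background, leaving out 48 h vehicle replicate 4 and the other scalings were added after seeing the data. Promoter sequences come from RefSeq (GRCr8).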

Additional observations from a re-analysis of the deposited data

Results flagged for a closer look

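In groups of 5 wells, the farthest well was set against the spread of the others for the 11 members described by rule, 66 groups in all. A well far from the rest was found in 5, where chance gives about 1 in 20. Lipa read 13332.9 in 8 µM replicate 2 at 24 h, against 14800 to 15174.6 in the other wells. Rab7a read 21911.5 in 24 h vehicle replicate 5, against 19410.7 to 20062. Wipi2 read 6430.29 in 8 µM replicate 4 at 48 h, against 5642.43 to 5837.28. Atg12 read 4388.87 in 24 h vehicle replicate 1, against 5052.64 to 5242.35. Lamp2 read 41484.2 in 200 µM replicate 1 at 24 h, against 43784.3 to 44427.9. The effect of treatment on Ctsd differed between 48 h and 24 h by 0.54 at 8 µM and by 0.37 at 200 µM on the log2 scale, in limma's test of that difference.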

How the results depend on the processing

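Besides the 30 fits that each leave out 1 array, 11 other settings were tried: another pseudocount (1, then 64), median centring, quantile normalization, a filter at the 60th percentile or none, probe sets averaged by gene, the arrays of the time or groups compared alone, a block by array number, no variance trend and array weights. Of 30 described changes 17 were called under all 41 settings, 13 were lost under at least 1, and 0 changed direction. Leaving out 1 array gave 9 to 11 and 7 to 10 members changed at 24 h (8 µM, then 200 µM) and 12 to 17 and 10 to 18 at 48 h. It gave 1 to 3 and 0 to 3 that differed between doses (24 h, then 48 h), 1 to 2 and 0 to 3 whose effect differed between times (8 µM, then 200 µM), and 0 to 3 between vehicle groups. Against vehicle at 24 h, quantile normalization gave 4 members up and 7 down at 8 µM and 4 and 8 at 200 µM. At 48 h it gave 10 and 7 at either dose. In that setting 26.3%, 26.2%, 36.8% and 35.5% of all genes changed in the 4 comparisons. Median centring, under which the standard errors given above were larger, gave 5, 4, 9 and 8 members changed against vehicle. In the other 5 contrasts it gave 0, with limma's unadjusted p under 0.05 for 1, 0, 2, 3 and 4 members. For doses at 48 h, quantile normalization and array weights each gave 3, and the mean of probe sets and the subset of arrays 0 each, with 4 and 3 members under an unadjusted 0.05 in limma. For the change of the 8 µM effect with time, quantile normalization gave 4 and array weights 2. For the 200 µM effect, quantile normalization, no filter and the 60th percentile each gave 2 and array weights 3. Between vehicle groups, quantile normalization gave 5, array weights 3 and the replicate block 2, while no filter, the subset of arrays and no variance trend gave 0 each in limma, with 8, 2 and 8 members under an unadjusted 0.05. That block joins the arrays of 6 consecutive numbers in the labels, 1 of each group, which the labels do not call a batch, and it moved no other count by over 1.5 times. The causes were not tested. With all arrays the median standard error over genes was 0.124, which limits what small log2 differences can be told from zero.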
